A study of Mus musculus with 8 samples.

Results

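The 5 genes followed here carry ketone bodies into the cell and pass them between acetyl-CoA and 3-hydroxybutyrate: Oxct1, Bdh1, Bdh2, Acat1 and Slc16a1. They were taken by gene symbol, with no threshold on their values, and are 5 of the 48440 entries in the deposited table of read counts. The table covers cardiomyocytes from the hearts of C57BL6/J mice at postnatal day 2. There are 8 libraries, 4 per sex and 2 per litter, because a male and a female pup were taken from every one of 4 litters, and neither a treatment nor a modified allele is named for any of them. How the cells were purified is not given in the sources used here, and each library comes from the heart of a single pup. Libraries held between 14226342 and 24910243 counts, and 13771 genes, all 5 members among them, passed the filter on low counts and were tested.

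Ketone bodies are made from fatty acids in the mitochondria of the liver and burned in other organs. In synthesis, thiolases such as Acat1 join acetyl-CoA units into acetoacetyl-CoA, further enzymes turn this into acetoacetate, and Bdh1 reduces acetoacetate to 3-hydroxybutyrate. In use, Slc16a1 (the monocarboxylate transporter MCT1) carries ketone bodies and lactate across the plasma membrane, Bdh1 regenerates acetoacetate, Oxct1 (SCOT, the rate-limiting enzyme of ketone oxidation) transfers CoA to it from succinyl-CoA, and Acat1 splits the product into acetyl-CoA. Bdh2 is a cytosolic enzyme first described as a second 3-hydroxybutyrate dehydrogenase. The heart is a major consumer of ketone bodies, and suckling pups live on fat-rich milk, which keeps circulating ketone bodies high.

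Labels were checked before levels were read. Xist had 15 to 124 counts in male and 15865 to 31331 in female libraries, and Ddx3y had 1121 to 1694 counts in male and 1 to 3 in female libraries. The 8 cardiomyocyte markers summed to 55498 to 76457 CPM (a gene's reads relative to all reads of its library, after TMM scaling) against 32.4 to 243 CPM for 8 fibroblast, 15.5 to 144 CPM for 8 endothelial and 415 to 1120 CPM for 6 mural cell markers. All 4 of these sums were lowest, as litter means, in litter 3: 56112 CPM against 68776 to 70726 CPM for cardiomyocytes, and 42.1 against 138 to 198 CPM for fibroblasts. The cardiomyocyte markers did not all fall. Against the mean of the other litters, Actc1 (-0.67 on the log2 scale), Myh6 (-0.61), Actn2 (-0.36), Mybpc3 (-0.20) and Tnni3 (-0.15) were lower in litter 3. Ryr2 (0.16), Pln (0.11) and Tnnt2 (0.11) were higher. Neither these 3 nor Tnni3 had an adjusted p under 0.05 in edgeR. Acta2 made up most of the mural sum, at 343 to 1037 CPM, and Cspg4 had 56.6 to 71.2 CPM. Of the other mural markers, none exceeded the 12.0 CPM that Rgs5 reached. Cspg4 was not lower in litter 3 (0.14 on the log2 scale), unlike Acta2 (-1.31) and the other mural markers. Haemoglobin and other erythroid markers summed to 98.6 to 532 CPM, with the highest sum in the male of litter 3. These marker sums move with litter, as several results here do, and their part in those results was not tested. In a bulk sample, fewer cells of a type cannot be told apart from less RNA per cell. Day and batch of preparation are not named in the labels, so litter and preparation cannot be told apart.

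Oxct1, the member that differed most firmly between litters, and Slc16a1, the member that did not pass the litter test, are shown by the 300 bases around their start sites (250 before, 50 after) as RefSeq gives them for GRCm38.p6, each from 5′ to 3′ on the strand of the gene, with capitals for the E-box letters CACGTG. The Oxct1 window is chr15:4026178-4026477 on the plus strand, and the Slc16a1 window is chr3:104638414-104638713 on the plus strand.
Oxct1: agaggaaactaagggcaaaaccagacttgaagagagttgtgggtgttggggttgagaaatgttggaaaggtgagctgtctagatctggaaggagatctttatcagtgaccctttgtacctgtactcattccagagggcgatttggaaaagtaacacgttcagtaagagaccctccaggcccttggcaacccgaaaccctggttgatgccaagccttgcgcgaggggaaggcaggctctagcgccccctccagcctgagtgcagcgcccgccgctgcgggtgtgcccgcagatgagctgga
Slc16a1: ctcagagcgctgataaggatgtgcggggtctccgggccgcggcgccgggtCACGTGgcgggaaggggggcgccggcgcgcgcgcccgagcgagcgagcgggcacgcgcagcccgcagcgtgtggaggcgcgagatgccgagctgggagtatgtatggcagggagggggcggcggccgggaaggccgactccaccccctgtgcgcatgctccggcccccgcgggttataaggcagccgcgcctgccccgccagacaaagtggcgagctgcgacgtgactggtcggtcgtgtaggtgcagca
These windows differ in base composition. GC made up 55.3% of the Oxct1 window, which holds 11 CpG, and 73.7% of the Slc16a1 window, which holds 42 CpG, against medians of 52.7% and 7 CpG over 32851 promoters of the same length. Both strands were searched for 5 motifs, here with the share of all promoters that hold each: TCAAGGTCA (oestrogen-related receptor, 0.423%), the PPAR direct repeat (0.0396%), CACGTG (E-box, 7.15%), the NRF1 palindrome (0.971%) and CCAAT (37.4%). Slc16a1 held the E-box, 200 bases before its start. Oxct1 held none of these motifs in its window, and Bdh2 held CCAAT on the minus strand. Promoters were matched for 4 of the 5 members. A match of letters is a description and not a binding site.

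The order of the members by level was read per kilobase of exon. Acat1 was highest at 173 ± 16.4 CPM per kilobase, followed by Oxct1 at 73.8 ± 25.3 and Slc16a1 at 49.3 ± 6.78 (SD, n = 8). Bdh2 at 0.320 ± 0.149 and Bdh1 at 0.296 ± 0.129 CPM per kilobase were far lower. Oxct1 ranged from 47.5 to 111 and Slc16a1 from 39.7 to 58.8 CPM per kilobase, so these neighbours overlapped, and the ranges of Bdh2 and Bdh1 overlapped as well. Among 13291 tested genes with an exon length, 98.5% lay below Acat1, 96.5% below Oxct1 and 94.8% below Slc16a1, while 9.12% lay below Bdh2 and 8.43% below Bdh1. The cleaving and transferring enzymes and the transporter were thus among the more abundant transcripts of these cells, and both dehydrogenases were near the floor.

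**Figure D1:**
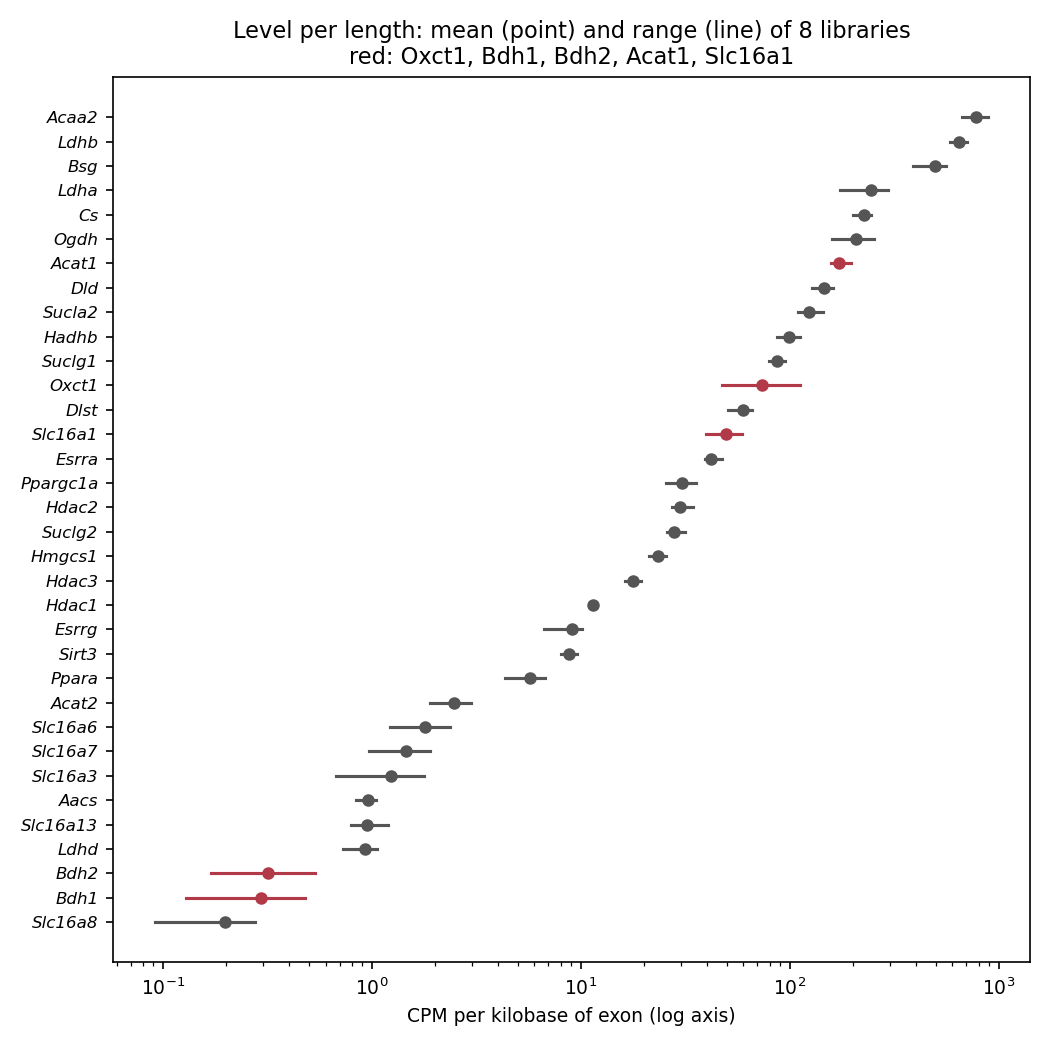
Level per kilobase of exon (CPM per kilobase, log axis) of the members and the other tested pathway genes, with a point for the mean and a line for the range of the 8 libraries. Acat1, Oxct1 and Slc16a1 lie at or above 39.7 CPM per kilobase, while Bdh1 and Bdh2 lie below 1 CPM per kilobase.

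Oxct1 differed most firmly between litters. The gene (ENSMUSG00000022186.14) spans chr15:4026383-4155344 on the plus strand of GRCm38. Male and female of litter 1 had 412 and 389.8 CPM, those of litter 2 had 337 and 259, those of litter 3 had 176 and 194, and those of litter 4 had 199 and 218. Both pups of litter 1 were above every other library, both pups of litter 2 were above both of litters 3 and 4, and the male was the higher pup in litters 1 and 2 only. Litter means were 401 ± 16.0, 298 ± 54.9, 185 ± 13.1 and 209 ± 13.4 CPM (SD, n = 2) in litters 1 to 4. The spread of the litter coefficients was 1.12 on the log2 scale, with an adjusted p of 9.24e-05 in edgeR's quasi-likelihood test over all genes.

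By the same test, 4 of the 5 members and 32.1% of all tested genes differed by litter, so that a litter call is common in these libraries. The median spread between litters was 1.12 on the log2 scale over the 5 members and 0.37 over all tested genes, a description that rests on few genes. By member it was 1.47 for Bdh2, 1.43 for Bdh1, 1.12 for Oxct1, 0.31 for Acat1 and 0.25 for Slc16a1. The median is thus the value of Oxct1, and Acat1 and Slc16a1 lay under that of all genes. The 2 widest spreads are those of genes with 9 to 39 (Bdh1) and 18 to 50 (Bdh2) counts per library. Oxct1 kept its call in all 15 alternatives that kept litters 1 and 3, with adjusted p up to 0.000539, while the calls of Bdh1, Bdh2 and Acat1 were each lost when single libraries were left out. With 1 library left out, between 1 and 3 members were called.

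The order of Oxct1 over the litters was litter 1, litter 2, litter 4, litter 3, and not every neighbour in it was separated. Against the mean of the other litters, litter 1 was higher by 0.83 ± 0.08 (log2, SE) with an adjusted p of 0.000111 in edgeR's quasi-likelihood test. Litter 3 was lower, at -0.66 ± 0.09 (adjusted p = 0.000359, edgeR), and so was litter 4, at -0.43 ± 0.09 (adjusted p = 0.0152, edgeR). The litter 4 value did not pass without the male of that litter (adjusted p = 0.180, edgeR) or without litter 1 (0.314). That library had 18.5% of its counts in mitochondrially encoded genes, against 13.4% to 15.2% in the other 7. With the mitochondrially encoded genes left out, the litter 4 value was -0.43 (adjusted p = 0.0144, edgeR). Litter 2, at 0.25 ± 0.09, did not pass (adjusted p = 0.142, edgeR), but did so in edgeR without its female (0.0286), with no filter (0.00315) and without litter 1 (0.00196). In direct pairs, litter 3 was lower than litter 1 by a log2 difference of -1.12 (adjusted p = 2.72e-05) and lower than litter 2 by -0.68 (adjusted p = 0.00129), both by edgeR and kept whichever library was left out. Litter 4 was lower than litter 1 by -0.94 (adjusted p = 0.000785, edgeR), also kept, and lower than litter 2 by -0.51 (adjusted p = 0.0207, edgeR), which was lost without the litter 2 male (0.193) or the litter 4 male (0.154). Litters 3 and 4 differed by 0.17 and did not pass (adjusted p = 0.283, edgeR). Litters 2 and 1 differed by -0.43 (adjusted p = 0.0833, edgeR), a difference that passed without the male of litter 2 (0.0384) or without either pup of litter 3 (0.0477 for the male, 0.0434 for the female), without litter 3 (0.0467) and with no filter (6.2e-06).

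Beside the Oxct1 litter means, the summed cardiomyocyte markers averaged 68776, 70379, 56112 and 70726 CPM in litters 1 to 4. In litter 3 these markers went both ways on the log2 scale. Actc1 (-0.67) and Myh6 (-0.61) were the lowest, while Ryr2 (0.16), Pln (0.11) and Tnnt2 (0.11) were higher. On the opposite strand, the transcript BC037032 shares 10.8% of the exon windows of Oxct1. It had 55 to 124 counts where Oxct1 had 2825 to 10272, and whether reads of one were counted for the other was not tested.

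**Figure D2:**
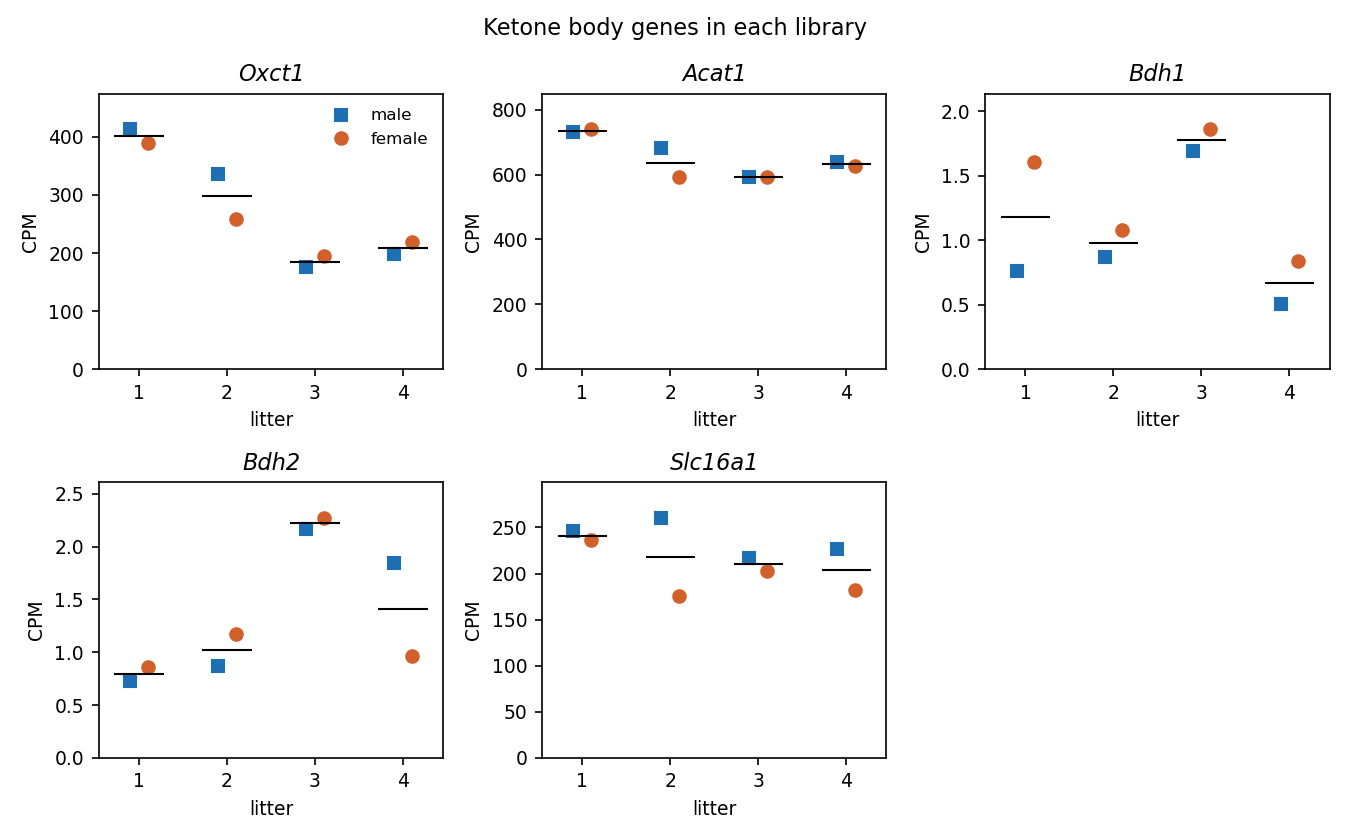
CPM of each ketone gene by litter, with 1 square per male and 1 circle per female library, and lines for litter means. Oxct1 steps down from 412 and 389.8 CPM in litter 1 to 176 and 194 CPM in litter 3, and Bdh1 and Bdh2 lie at or below 2.27 CPM.

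Acat1 varied little around a high level. The gene (ENSMUSG00000032047.5, chr9:53580522-53610382, minus strand) had 731 and 739 CPM in the male and female of litter 1, 682 and 591 in litter 2, 591 and 591 in litter 3, and 638 and 626 in litter 4. Both pups of litter 1 were above all others, and the female of litter 2 lay with litter 3. The litter means were 735 ± 5.27, 637 ± 64.4, 591 ± 0.310 and 632 ± 8.75 CPM (SD, n = 2). The spread over litters was 0.31 on the log2 scale, under the median of all genes, with an adjusted p of 0.0287 in edgeR's quasi-likelihood test. This call was lost without the male of litter 1 (0.118), the female of litter 1 (0.288) or either pup of litter 3 (0.0785 for the male, 0.0501 for the female). Litter 1 was higher than the mean of the others by 0.25 ± 0.06 (log2, SE; adjusted p = 0.0186, edgeR), lost without its male (0.143), its female (0.339) or litter 3 (0.0704). Per length, the ratio of Acat1 to Oxct1 was 1.81, 2.12, 3.15 and 2.99 as means of litters 1 to 4, and from 1.75 to 3.31 over the libraries.

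Bdh1 and Bdh2, the dehydrogenases, were counted in few reads, and single libraries decided their calls. Bdh1 (ENSMUSG00000046598.15, chr16:31422280-31458901, plus strand) had 19 and 39 counts in the male and female of litter 1, 21 and 24 in litter 2, 39 and 27 in litter 3, and 9 and 20 in litter 4. The 9 counts of the litter 4 male have an exact Poisson 95% interval of 4.12 to 17.1, which covers counting error only. In CPM, Bdh1 was at 0.763 and 1.604 in litter 1, 0.873 and 1.08 in litter 2, 1.69 and 1.86 in litter 3, and 0.503 and 0.840 in litter 4. Both pups of litter 3 were above every other library, though the female of litter 1 came close. Litter 3 was higher than the mean of the others by 0.99 ± 0.28 (log2, SE; adjusted p = 0.0203, edgeR), lost without the male of litter 1 (0.0554), either pup of litter 3 (0.283 for the male, 0.0604 for the female) or a sex term (0.0558). The litter test gave an adjusted p of 0.0482 in edgeR and was lost whichever of the 8 libraries was left out (0.0600 to 0.249).

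Bdh2 was highest in litter 3 as well. The gene (ENSMUSG00000028167.15, chr3:135281221-135304426, plus strand) had 18 to 50 counts per library. Its level was 0.723 and 0.864 CPM in the male and female of litter 1, 0.873 and 1.17 in litter 2, 2.17 and 2.27 in litter 3, and 1.84 and 0.966 in litter 4. Both pups of litter 3 stood above the rest, and the pups of litter 4 lay far apart from each other. Litter 3 was higher than the mean of the others by 1.09 ± 0.29 (log2, SE; adjusted p = 0.0145, edgeR), lost without its male (0.0909), its female (0.133) or litter 1 (0.0605). The litter test gave an adjusted p of 0.0351 in edgeR. It was lost without the male of litter 1 (0.120), the male of litter 2 (0.0529), the male of litter 3 (0.122) or the females of litters 1 (0.0701) and 3 (0.160), each in turn. The highest level, in the female of litter 3, rests on 33 counts in the shallowest library.

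Slc16a1, the transporter, differed least by litter. The gene (ENSMUSG00000032902.1, chr3:104638668-104658462, plus strand) had 246 and 236 CPM in the male and female of litter 1, 260.3 and 176 in litter 2, 217 and 203 in litter 3, and 226 and 182 in litter 4. The pups of litter 2 were the highest and the lowest of all, so the litters overlapped. Litter means ran from 204 ± 31.5 to 241 ± 7.02 CPM (SD, n = 2). The spread over litters was 0.25 on the log2 scale, with an adjusted p of 0.234 in edgeR's quasi-likelihood test, which fell to 0.0405 without the male of litter 2.

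The number of members called per litter was read against the share of all genes. In litter 1, 2 of the 5 members were higher and 0 lower than the mean of the others, where 7.86% of genes were higher, 5.41% lower and 13.3% either. In litter 3, 2 were higher and 1 lower, against 13.6% and 14.8% of genes, 28.3% in all. In litter 4, 0 were higher and 1 lower, against 4.71% and 5.8%, 10.5% in all. In litter 2, 0 members were called by edgeR, against 3.3% of genes higher, 0.879% lower and 4.18% in all. In direct pairs, edgeR called 3 members between litters 3 and 1 (26% of all genes), 1 between 4 and 1 (12.8%), 2 between 3 and 2 (20.4%), 1 between 4 and 2 (6.54%), 1 between 4 and 3 (20.7%) and 0 between 2 and 1 (0.828%). Besides Oxct1, the pair called for Acat1 was litter 3 against 1, at -0.31 on the log2 scale (adjusted p = 0.0088, edgeR), lost without the litter 3 male (0.0723) or the litter 1 female (0.133). Bdh2 was higher in litter 3 than in litter 1 by 1.47 (adjusted p = 0.0127, edgeR), lost without any single pup of litters 1 or 3 (0.0534 to 0.127) and after thinning (0.0502). It was higher in litter 3 than in litter 2 by 1.11 (adjusted p = 0.0483, edgeR), lost without any single pup of litters 1, 2 or 3 (0.0629 to 0.306), without a sex term (0.0543), without litter 1 (0.0608) and after thinning (0.0584). Bdh1 was lower in litter 4 than in litter 3, at -1.43 (adjusted p = 0.0189, edgeR), lost without the litter 3 male (0.146), either pup of litter 4 (0.0985 for the male, 0.0922 for the female) or a sex term (0.0509). The comparisons share libraries, so these counts are not independent.

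**Figure D3:**
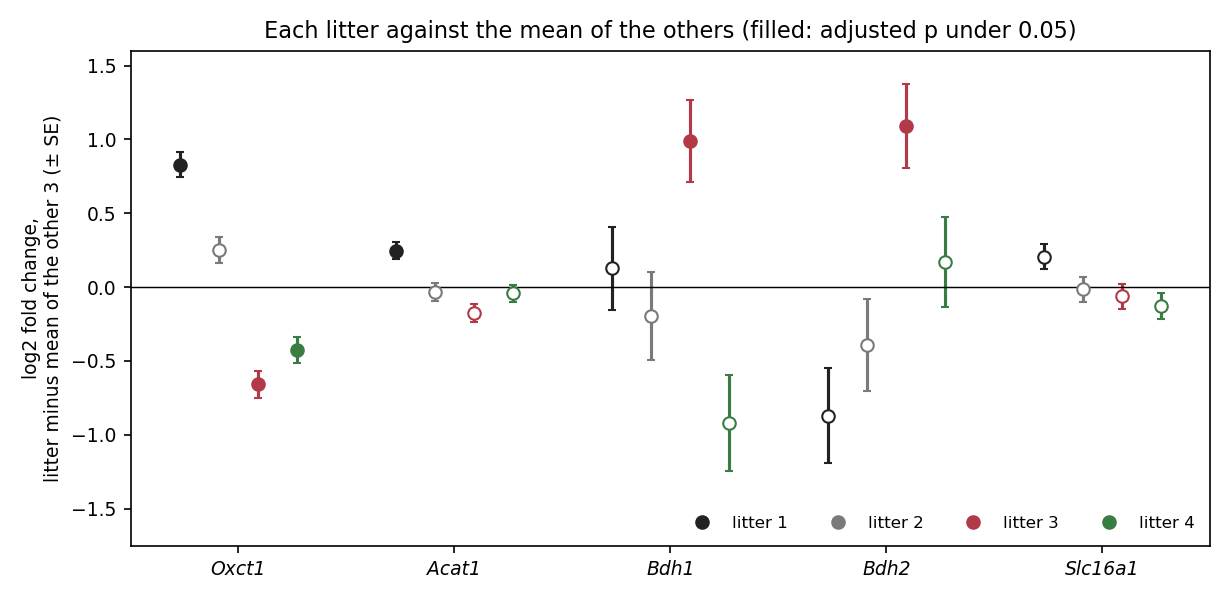
Log2 fold change (± SE) of each litter against the mean of the other 3, from edgeR's quasi-likelihood fit, with filled points for an adjusted p under 0.05. Oxct1 runs from 0.83 in litter 1 to -0.66 in litter 3, while the Slc16a1 points are all open.

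The wider pathway held 40 further listed genes analysed here, of which 29 were tested. The litter test of edgeR called 14 of these 29, against 32.1% of all genes. Their median spread over litters was 0.29 on the log2 scale, smaller than the 0.37 over all tested genes. Leaving out 1 library gave 5 to 15 calls, with 5 without the female of litter 1, 6 without its male, 7 without the female of litter 3 and 9 without the male of litter 3. It called 6 without a sex term, 5 without litter 3 and 7 without litter 1. In litter 1, 7 were higher and 0 lower than in the other litters, against 7.86% and 5.41% of all genes. In litter 3, 2 were higher and 9 lower, against 13.6% and 14.8% of all genes. In litter 4, 1 was higher and 2 lower, against 4.71% and 5.8%, and in litter 2, 0 were called by edgeR. With scaling by library size alone, edgeR called 0 higher and 5 lower in litter 4, 2 higher and 6 lower in litter 3, and 1 higher in litter 2. Without a sex term, 3 were higher in litter 1, 2 higher and 6 lower in litter 3, and 1 lower in litter 4. Counts without 1 library were 1 to 8 higher in litter 1, and 0 to 2 higher and 4 to 9 lower in litter 3. In litter 1, 1 was higher without its male, 2 without its female and 4 without the female of litter 2. In litter 3, 5 were lower without its male and 4 without its female, while 0 were higher without its female and 1 without either its male or the litter 1 male. In litter 4, 0 were called without its female, 1 without its male, and 1 without either pup of litter 1, the litter 2 male or the litter 3 female.

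Among the called genes, 4 of 14 kept the litter call in every alternative that kept the litters of their highest and lowest level: Slc16a3, Bsg, Ldha and Ppara. Slc16a3 (MCT4, a transporter that chiefly exports lactate) was at 9.39 ± 0.103, 7.34 ± 0.681, 3.62 ± 0.0324 and 6.01 ± 0.189 CPM (SD, n = 2) in litters 1 to 4, with an adjusted p of 0.00066 in edgeR. It was thus highest in litter 1 and lowest in litter 3, as Oxct1 was. Litters 2 and 1 did not differ past the threshold for Slc16a3 (adjusted p = 0.292, edgeR). Litter 1 was above the mean of the others by 0.79 on the log2 scale, and by 0.76 to 0.82 with a library left out. That call was not kept in every such fit. Bsg, the chaperone that brings MCT1 and MCT4 to the membrane, was lower in litter 3 at -0.39 on the log2 scale (adjusted p = 0.000339, edgeR). Ldha, a subunit of lactate dehydrogenase, was higher in litter 1 by 0.40 (adjusted p = 0.000824, edgeR) and lower in litter 3 at -0.57 (adjusted p = 4.67e-05, edgeR). Ppara, a receptor that drives fat oxidation and ketone synthesis genes in liver, was lower in litter 4 at -0.47 (adjusted p = 0.00723, edgeR), lost without its male (0.0671) or its female (0.0625). In litter 1 it was higher by 0.28 (adjusted p = 0.0356, edgeR), lost without either pup of litter 1 (0.352 for the male, 0.226 for the female), the male of litter 3 (0.0706) or the females of litters 2 (0.0744) and 4 (0.0544), each in turn, without a sex term (0.061) and after thinning (0.0959).

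The other 10 called genes lost the call in at least 1 fit that left out a library. They were Slc16a7 (MCT2), Suclg1 and Sucla2 (succinyl-CoA ligase subunits), Ogdh, Dlst and Dld (the 2-oxoglutarate dehydrogenase complex, which makes the succinyl-CoA that Oxct1 uses), Cs (citrate synthase), Acaa2 and Hadhb (thiolases of fat oxidation) and Ppargc1a (a coactivator of mitochondrial genes). Without the female of litter 1, 9 of these calls were lost, and without its male 8. Without the female of litter 3, 7 were lost, and without its male 6. Leaving out either pup of litter 2 lost 4, the male of litter 4 lost 1 and the female of litter 4 lost 0. Adjusted p-values of the lost calls ran from 0.0537 to 0.24 in edgeR.

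By list, counts stand beside 32.1% of all genes called by litter, 7.86% higher in litter 1 and 14.8% lower in litter 3. The succinyl-CoA supply and acetyl-CoA entry genes had 6 of 7 tested genes called by litter, and against the other litters 3 of 7 were higher in litter 1 and 5 of 7 lower in litter 3. The count of 3 fell without the litter 1 male, and that of 5 without the litter 3 female. The count of 6 fell to 1 without the male or the female of litter 1 or the litter 3 female, to 2 without the litter 3 male or without a sex term, and to 3 and 4 without the female and the male of litter 2. The transporter and chaperone list had 3 of 7, with 2 higher in litter 1 and 3 lower in litter 3, and 2 to 4 called with a library left out. The 2 transporters higher in litter 1, Slc16a3 and Slc16a7, did not pass that contrast without the litter 1 male. The ketogenesis list had 2 of 2 among the genes analysed here (Acat1 and Bdh1), and the ketolysis list had 3 of 3 (Bdh1, Oxct1 and Acat1). With a library left out these counts were 0 to 1 and 1 to 2, lowest without any single pup of litters 1 or 3. The cytosolic list had 1 of 4 called (Bdh2), and 0 to 1 with a library left out. The mitochondrial thiolases had 3 of 3, with Acat1 higher in litter 1, Hadhb higher in litter 3 (0.21) and Acaa2 higher in litter 4 (0.21), and 0 to 3 with a library left out, 0 without either pup of litter 1. Of the lactate dehydrogenases 1 of 3 and of the regulators 2 of 8 were called, the latter 1 without either pup of litter 1 or the litter 3 female. Among the thiolases, Hadhb did not pass as higher in litter 3 without the female of that litter. Acaa2 did not pass as higher in litter 4 without either pup of that litter, nor in some other fits. The remaining transporters did not pass the litter test in edgeR: Slc16a6 had an adjusted p of 0.109, Slc16a8 of 0.544 and Slc16a13 of 0.671. Several genes of the lists were at or near 0 counts in every library, namely Hmgcll1 (0 to 2), Oxct2a (0), Oxct2b (0 to 1), Slc16a4 (0 to 4), Slc16a11 (0 to 3) and Emb (0 to 3). The testis form of the transferase was thus at the floor, and Oxct1 carried the counts of the transferases.

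No member passed the test of sex. In edgeR's quasi-likelihood test, male against female, 0 of the 5 members passed, where 6 genes or 0.0436% of all tested genes did. With litter as a block, 0 of 5 passed, where 29 genes or 0.211% did. The adjusted p was 1.00 for each member without the block. At an unadjusted p under 0.05, only Slc16a1 passed.

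Slc16a1 was higher in the male in 4 of 4 litters. Males averaged 237 ± 19.5 CPM and females 199 ± 27.3 CPM (SD, n = 4), with a log2 fold change, male minus female, of 0.25 ± 0.11 (SE). The unadjusted p was 0.0383 in edgeR. The 8 summed fibroblast markers were also higher in the male in every litter, at 166 against 111, 243 against 153, 51.8 against 32.4 and 227 against 108 CPM in litters 1 to 4, and 0 of the 8 passed the edgeR test of sex without the block and 5 with it. The 8 summed endothelial markers were lower in the male in litters 1 to 3, at 15.5 against 59.8, 78.6 against 144 and 16.1 against 16.8 CPM, and higher in litter 4, at 28.9 against 23.1 CPM. Of these 8, 0 had a positive male minus female fold change, and edgeR called 0 by sex without the block and 1 with it. Sums of other lists differed between littermates as well, and the part of any list in the sex differences of Slc16a1 and Bdh1 was not tested. With the litter block the value was 0.26 ± 0.07, with an unadjusted p of 0.00477 and an adjusted p of 0.28 in edgeR. The ranges overlapped, since the female of litter 1 at 236 CPM exceeded the males of litters 3 and 4 at 217 and 226 CPM.

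Bdh1 was higher in the female in 4 of 4 litters, where the endothelial sum was higher in the female in 3 of 4, with Bdh1 averages of 1.35 ± 0.468 CPM for females and 0.958 ± 0.514 CPM for males (SD, n = 4). The log2 fold change was -0.46 ± 0.39 (SE) without and -0.53 ± 0.26 with the block, with adjusted p of 1.00 and 0.444 in edgeR. Oxct1 averaged 281 ± 113 CPM in the males and 265 ± 87.2 CPM in the females, Acat1 661 ± 60.0 and 637 ± 69.8, and Bdh2 1.40 ± 0.713 and 1.32 ± 0.648 (SD, n = 4). The log2 fold changes of these 3 were 0.08 ± 0.29, 0.05 ± 0.10 and 0.11 ± 0.43 (SE), beside a median size of 0.09 over all genes. The male was the higher pup in 2 of 4 litters for Oxct1, 2 for Acat1 and 1 for Bdh2.

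The genes most like each member over the 8 libraries were listed by Pearson's r of log2 CPM, as a description with no test, since pups of a litter are not independent and 13771 genes were compared. For Oxct1 they were Rxfp1 (r = 0.975), Ptgr1 (0.974) and Gas2l3 (0.973), and 40 genes had an r of at least 0.95. For Acat1 they were Sucla2 (0.979), Fanci (0.969) and Murc (0.968). For Slc16a1 they were Ankrd1 (0.987), Cltc (0.977) and Eogt (0.974). For Bdh1 they included Secisbp2 (0.974) and Zfp654 (0.958), and for Bdh2 they were Ptma (0.977), Pias2 (0.975) and Flrt3 (0.967), but the counts of both members are low. With ranks in place of levels, 0 of the 3 genes stayed among the first 3 for any member.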

How the data were processed

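RNA was measured in 8 libraries of purified cardiomyocytes. The values are raw counts, deposited as 1 table of 48440 gene symbols by 8 libraries. STAR 2.7.3a and the build mm10 are named, per the submitters' processing notes. The counting program, annotation and strand setting are not given in the sources used here. The labels name poly(A) RNA as the molecule but a total RNA library kit. P-values measure the spread between single pups.

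Genes were filtered with filterByExpr on sex (13771 kept) and scaled by TMM in edgeR 4.0.16 under R 4.3.3. The edgeR quasi-likelihood F test compared the sexes without a litter term (6 residual degrees of freedom), and litters in a model with sex (3 residual degrees of freedom), with each litter set against the mean of the other 3 and 6 pairs of litters. Adjusted p-values (Benjamini-Hochberg, over all tested genes) were called under 0.05. Standard errors were derived from the fold change and F. DESeq2 1.42.0 was an alternative, and others were library size alone, other filters, thinning to the smallest total and leaving out a library or litter. Levels per length are CPM divided by kilobases of merged exons in GENCODE M21 on GRCm38, which need not be the annotation of the authors. Promoters are those of the RefSeq table for GRCm38.p6.

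Named genes were the 5 members, pathway genes past the litter or sex threshold, all genes of the ketogenesis, ketolysis and transporter lists, and the 3 genes most like each member by r. Sirt3 is named outside these rules, after its values were seen, because its direction reversed. So are some cell type markers, to show how their sums are made up. The members and lists were chosen with earlier results of these data known. Results of a few genes that these rules would name are not reported here. The labels state that a male and a female share a litter. After removal of the sex means, their correlation across genes was 0.506, 0.503, 0.696 and 0.367 in litters 1 to 4, against -0.482 to 0.27 for other pairs, so the litter numbers pair the samples. No library repeated another of the same sex within sampling noise (chi-square per degree of freedom of 10.4 to 49.2). Pairs of a male and a female library were not compared in this way. Scripts were tested on simulated counts.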

Additional observations from a re-analysis of the deposited data

Results flagged for a closer look

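The ratio of Oxct1 to Bdh1 per length was 110 in the female of litter 3 and between 252 and 273 in the other 3 females, a gap large enough to set that library apart from its group. The male of litter 3 had 109, the lowest of the males. Bdh1 was counted 27 times in the female of litter 3. Of 34 groups of 4 libraries examined, 1 had a library apart, where chance gives about 1.7.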

How the results depend on the processing

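With litter as a replicate block, 29 genes differed by sex instead of 6, and no call of a member changed. The other alternatives gave 5 to 9 genes. The sex difference of Oxct1 turned negative without the male of litter 1 (-0.16), that of litter 2 (-0.02) or the litter 3 female (-0.05), and ran from -0.16 to 0.33 over the libraries left out. That of Bdh2 turned negative without the male of litter 3 (-0.19), that of litter 4 (-0.05), or the females of litters 1 (-0.05) and 4 (-0.0080) in turn, and ran from -0.19 to 0.47.

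By litter, 4 members were called, 5 with no filter, 2 without a sex term, 2 after thinning, 2 in DESeq2, and 1 to 3 with a library left out. The log2 difference of Bdh1 between litters 3 and 4 was 1.36 without a sex term, 1.34 after thinning and 1.46 in DESeq2, none past the threshold, and 1.149 to 1.73 with a library left out. That of Bdh2 between litters 3 and 1 was 1.29 after thinning and 1.48 in DESeq2, neither past the threshold, and 1.27 to 1.68 with a library left out. That of Acat1 between litters 1 and 3 was 0.31 without a sex term, no longer past the threshold, and 0.27 to 0.36 with a library left out. The litter test of Slc16a1 passed with no filter (adjusted p = 0.0442, edgeR), where litter 1 exceeded litter 4 by 0.26 on the log2 scale, a difference that ran from 0.12 to 0.38 with a library left out. Beside those of Oxct1 and fits with a library left out, contrasts that passed only under an alternative were, for Acat1, litter 3 against the others with no filter (0.031), a mean of at least 50 counts (0.0457) or no mitochondrial genes (0.0481) and litter 4 against 1 by library size alone (0.0286) or with no filter (0.0288), as adjusted p in edgeR. With no filter, litter 1 against the others passed for Bdh2 (0.0442) and Slc16a1 (0.0192), and litter 4 against 1 for Slc16a1 (0.0214). The cause was not tested, beyond the lower number of samples or counts in the thinned and left-out fits.

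Over all genes, 1898 differed by litter without litter 3. Litter 1 against the others gave 977 without litter 3 and 359 to 1869 with a library left out. Litter 2 gave 1249 with no filter, 345 with a mean of at least 50 counts, 365 without a sex term, 271 without litter 3, 1407 without litter 1, and 153 to 752 with a library left out. Litter 3 gave 1704 to 3791 and litter 4 gave 322 to 1302 with a library left out, and litter 4 gave 834 without a sex term. Litter 2 against 1 gave 702 with no filter, 10 without a sex term, 279 without litter 3 and 2 to 271 with a library left out. Litter 4 against 1 gave 1119 without a sex term, and litter 4 against 2 gave 1549 with no filter and 379 without a sex term. With a library left out, litter 4 against 1 gave 330 to 1895, 4 against 2 gave 209 to 1108, 3 against 1 gave 1639 to 3777, 3 against 2 gave 1300 to 3041, and 4 against 3 gave 1373 to 2932.

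For 29 other pathway genes, 397 of 457 comparisons kept direction and side of the threshold, 52 lost it, 7 gained it and 1 reversed, that of Sirt3 without the female of litter 1 (-0.0424, and up to 0.135 with another library left out), which was not called. Of the 3 genes most like each member, 0 were kept by rank for any member, and without litter 3 1 was kept for Bdh1 and 0 for the others. Acat1 per kilobase of its longest transcript was 191 CPM. Depth limits Bdh1 and Bdh2, at 9 to 50 counts per library.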
